A study of Mus musculus with 20 samples.

Results

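The IL-2 and IL-7 receptor STAT5 axis was followed as 10 genes, chosen by exact gene symbol from the 23284 genes of the deposited count table: Il2ra, Il2rb, Il2rg, Il7r, Il4ra, Jak1, Jak3, Stat5a, Stat5b and Cish. Interleukin-2 and interleukin-7 are short-range growth and survival signals for lymphocytes. Their receptors share the common gamma chain encoded by Il2rg, which binds the kinase JAK3, while the ligand-specific chains bind JAK1. The active kinases phosphorylate STAT5A and STAT5B, which enter the nucleus and switch on target genes, among them Cish, whose product damps the same receptors. In the thymus, IL-7 supports the earliest double-negative (DN) stages, and CD25, the alpha chain of the IL-2 receptor encoded by Il2ra, is the surface marker of the DN2 and DN3 stages. DN3 is the stage at which the T cell receptor beta locus is rearranged under strong Notch1 signalling.

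RNA was sequenced from sorted DN3 thymocytes of C57BL/6 mice in 20 libraries and 6 groups, which form 3 pairs of perturbed and control cells. DeltaMxCre cells came from MxCre mice with floxed Zmiz1 (MxCreZmiz1f/f), and their controls, called MxCre, from mice with the Cre driver alone. MxCre is induced by interferon, and all 6 mice (3 libraries per group, 1 mouse each) received 40 mcg pI-pC, an interferon inducer, 5 times at intervals of 2 days and were sampled 8 weeks later. Mx1 promoter activity is not limited to thymocytes. AntiNRR cells came from mice given 10 mg/kg of an antibody that blocks the negative regulatory region of Notch1, and IgG cells from mice given the isotype control antibody, in both cases 24 h before the sort (3 libraries per group). How many mice stand behind these 6 libraries is not stated, and their p-values measure the spread between samples, which may be technical. DeltaTamCre cells came from Rosa26CreERT2Zmiz1f/f mice and TamCre cells from Rosa26CreERT2 mice, in which a ubiquitously expressed Cre is activated by tamoxifen. All 8 of these mice (4 libraries per group, 1 mouse each) received 0.2 mg/g tamoxifen 43 to 44 h before the sort. Ages are not stated. Zmiz1 encodes a transcriptional coactivator that binds Notch1. The 3 pairs set loss of that cofactor, read 8 weeks after pI-pC or 43 to 44 h after tamoxifen, beside loss of Notch1 signalling itself. The first 4 groups were made with the SMARTer kit from 50 ng of RNA and the last 2 with the TruSeq kit from 100 ng, so that a difference between the tamoxifen pair and the others cannot be told apart from a difference of kit.

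Total expected counts per library ran from 11695668 to 19133150 in the 12 SMARTer libraries and from 52615326 to 101425241 in the 8 TruSeq libraries. Zmiz1 RNA was lower in both deletion models, at a log2 fold change of -1.42 ± 0.11 (SE, edgeR FDR 1.15e-08) in DeltaMxCre and -0.65 ± 0.10 (edgeR FDR 0.0405) in DeltaTamCre cells, and at 0.16 ± 0.11 (edgeR FDR 0.515) in AntiNRR cells. The labels give the sorting gate as CD44-positive and CD25-negative, the reverse of the usual DN3 definition. In the libraries Il2ra was at 542 to 5885 CPM (counts relative to the TMM-scaled library size) and Cd44 at 0.550 to 0.755 CPM in DeltaMxCre, against 3.78 to 7.23 CPM in MxCre, and at 2.18 to 4.95 CPM in the other 4 groups. Cd44 was lower in DeltaMxCre cells (log2 fold change -3.07 ± 0.71, edgeR FDR 0.0151), 8.41-fold. The CD25 protein was thus part of the gate through which these cells were chosen, and Il2ra RNA is read with that in mind. The summed level of 15 DN3 marker genes was 12419 to 13059 CPM in DeltaMxCre, against 13981 to 16028 CPM in MxCre, 13014 to 14059 CPM in AntiNRR, against 16266 to 17275 CPM in IgG, and 11607 to 12944 CPM in DeltaTamCre, against 12758 to 14136 CPM in TamCre. Markers of cells outside the T lineage were also read. Of 8 thymic epithelial and stromal markers Foxn1 was at 0 in every library, but their summed level was 298 to 416 CPM in DeltaMxCre, against 305 to 324 CPM in MxCre, 399 to 423 CPM in AntiNRR, against 301 to 322 CPM in IgG, and 263 to 315 CPM in DeltaTamCre, against 268 to 283 CPM in TamCre libraries. The sum of 8 B cell markers lay between 22.7 and 54.9 CPM, with Pax5 at 0 in every group except DeltaTamCre, and that of 12 myeloid and dendritic cell markers between 4.80 and 28.9 CPM, with Elane at 0 in every group. In these bulk samples, fewer cells of a type and less RNA per cell cannot be told apart. TamCre library 1 stood apart from the other TamCre libraries, with Fos, an immediate-early gene singled out after its values were seen, at 226, 0.661, 0.285 and 0.899 CPM in TamCre 1 to 4. Results that turn on that library are given with and without it.

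The DNA at which transcription of these genes starts is shown for the 3 members with the largest changes. The RefSeq promoter table (GRCm38.p6) holds windows of 250 bases before and 50 bases after the start that RefSeq annotates, which can differ from the gene ends given below, for 9 of the 10 members. These windows were searched on both strands for the STAT motif TTCNNNGAA, the RBPJ motif TGGGAA (RBPJ is the DNA-binding partner of Notch), the forkhead motif GTAAACA, the ETS motif AGGAAGT and the NF-kB motif GGGAANNCC. The ETS and NF-kB motifs were chosen after these sequences had been read. Position 1 is the first transcribed base, and capitals mark matches.
Il2ra promoter, chr2:11642542-11642791, plus strand: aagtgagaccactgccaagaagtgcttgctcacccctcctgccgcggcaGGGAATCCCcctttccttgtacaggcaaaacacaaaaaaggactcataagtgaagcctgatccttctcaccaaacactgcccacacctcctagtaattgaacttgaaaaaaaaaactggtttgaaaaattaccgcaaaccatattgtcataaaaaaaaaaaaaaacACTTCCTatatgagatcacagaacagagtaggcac
Il7r promoter, chr15:9529877-9530126, minus strand: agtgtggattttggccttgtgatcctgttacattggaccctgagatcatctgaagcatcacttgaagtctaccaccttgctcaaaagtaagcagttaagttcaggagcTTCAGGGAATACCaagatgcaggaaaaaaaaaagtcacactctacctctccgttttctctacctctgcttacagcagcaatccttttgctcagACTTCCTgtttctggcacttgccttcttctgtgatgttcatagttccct
Cish start site, chr9:107296649-107296678, plus strand: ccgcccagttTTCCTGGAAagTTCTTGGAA
The Il2ra promoter held an NF-kB match, GGGAATCCC, at positions -201 to -193 and an ETS match, read as ACTTCCT, at -35 to -29. NF-kB matches occurred in 5.82% and ETS matches in 9.35% of all 32851 promoter windows of this length. The Il7r promoter held a STAT match at -142 to -134, an NF-kB match at -138 to -130 that shares 5 of its bases with the STAT match, and an ETS match at -49 to -43. The Cish window held no match before the start and 2 STAT matches directly behind it, at positions 1 to 9 and 12 to 20. STAT matches occurred in 8.30% of all windows, and 0.457% of windows held 2 or more. No other member window held a STAT, ETS or NF-kB match, Il2rg held 1 RBPJ match (25.6% of all windows), and no member window held the forkhead motif (3.65%). A match describes letters only and no binding was measured.

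Levels can be compared between genes only per transcript length, for which the group FPKM of the authors' deposited table were used (fragments per kilobase, scaled to library depth). These values carry an added 1: in each group 99.97 to 99.98% of genes without counts are listed at exactly 1, and genes with counts but a mean CPM under 0.05 have a median of 1.01, with 0 of them at 1. A value close to 1 is therefore mostly that offset, which leaves the order of genes as it is but pulls ratios of low genes towards 1. In the authors' deposited table Il2ra stood first in every group except AntiNRR, at 1096 FPKM in DeltaMxCre and 733 in MxCre, 154 in AntiNRR and 791 in IgG, and 619.9 in DeltaTamCre and 508 in TamCre. In AntiNRR cells Jak1 came first, at 166 FPKM. Jak1 and Il2rg took the next 2 places in the other groups. Il7r, Stat5a and Stat5b lay in the middle, between 29.9 and 59.99 FPKM over all groups. Jak3 and Cish were lower. Il4ra and Il2rb were listed at 3.46 or less in all 6 groups, and so close to the offset that their listed values are not read as levels. The signal-transmitting gamma chain was present in all groups, at 74.3 to 228 FPKM.

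**Figure D1:**
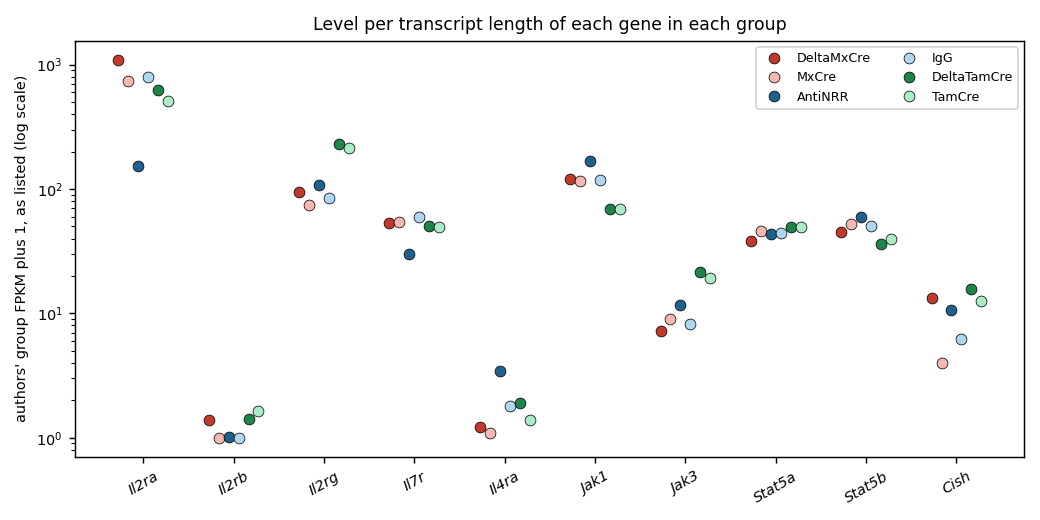
The authors' group FPKM of the 10 genes as listed, with the added 1 (log axis), in the 6 groups, 1 point per group and gene, with no error because the table gives group values only. Il2ra stands highest in every group except AntiNRR, where Jak1 (166 FPKM) lies above it (154 FPKM), and Il2rb and Il4ra lie lowest, near the offset of 1.

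Among the 3 comparisons, 4 calls fell on the members at an edgeR false discovery rate (FDR, Benjamini-Hochberg over all genes tested) under 0.05. In DeltaMxCre cells 1 of 9 tested members was called, Cish, which rose, where 2.94% of 13557 genes were called (1.67% higher and 1.27% lower). In AntiNRR cells 3 of 9 were called, with Jak1 up and Il2ra and Il7r down, where 4.06% of genes were called (1.66% higher and 2.4% lower). In DeltaTamCre cells 0 of 10 were called by edgeR, where 0.0892% of 13460 genes were called (0.0594% higher and 0.0297% lower). There 3 of 10 members had an unadjusted p under 0.05, beside 2153 of 13460 genes, and DESeq2 also called 0. The same held for 2239 of 13557 genes in DeltaMxCre and 2214 of 13557 genes in AntiNRR cells, beside which the unadjusted counts below are read. Il2rb did not pass the low-count filter in the SMARTer libraries. The median log2 fold change of the members was 0.04 in DeltaMxCre, 0.28 in AntiNRR and 0.10 in DeltaTamCre cells, beside -0.03, -0.02 and 0.02 over all genes tested. Groups did not overlap in CPM for 6 of 9 tested members in the DeltaMxCre pair, 3 higher and 3 lower, beside 20.9% of all genes (10.2% higher and 10.8% lower). In the AntiNRR pair this held for 5 of 9, 3 higher and 2 lower, beside 21.6% of all genes (10.3% higher and 11.3% lower). In the DeltaTamCre pair it held for 0 of 10, beside 10.6% of all genes (4.84% higher and 5.75% lower).

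**Figure D2:**
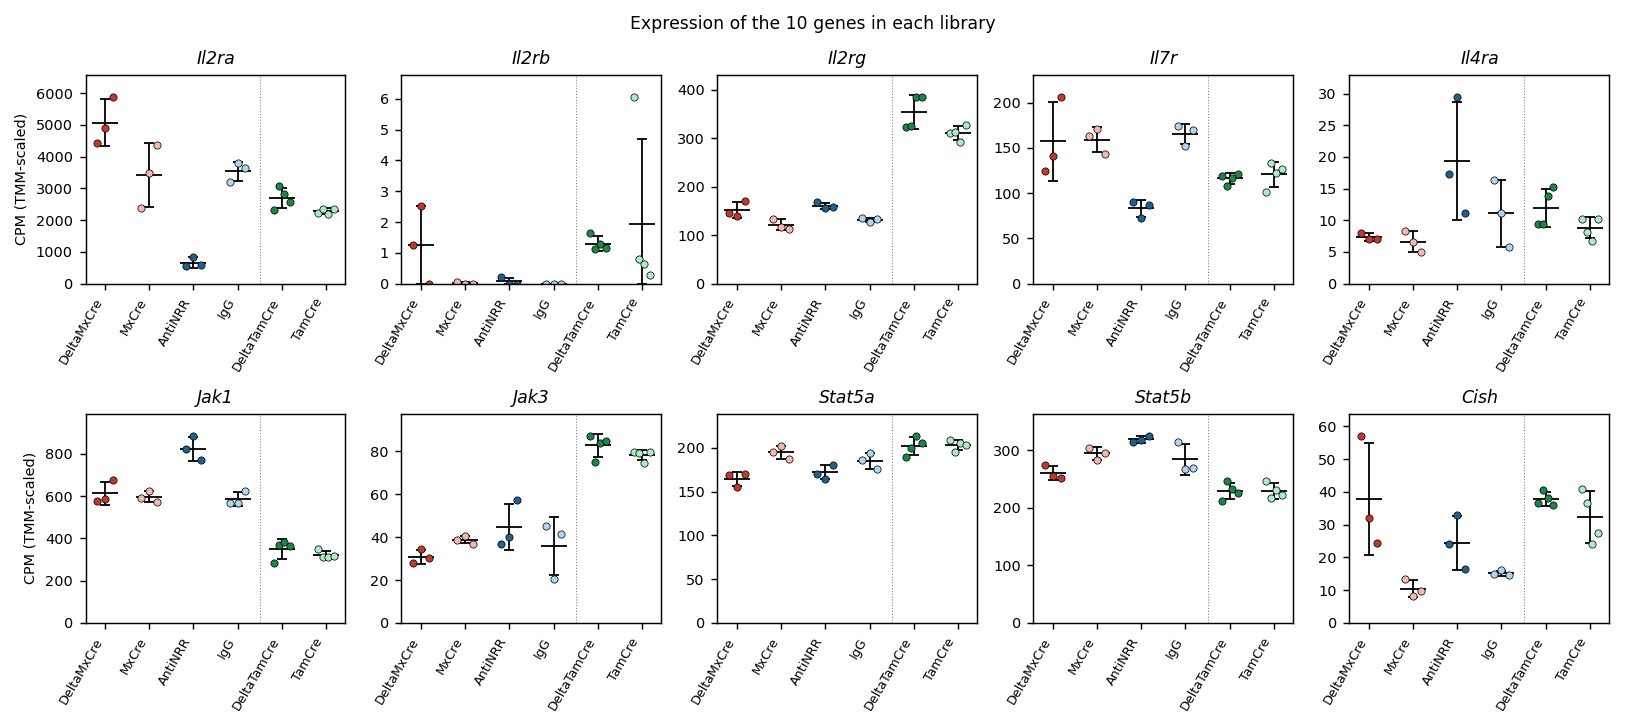
CPM of each gene in each library (points) with the group mean and SD (bars), each axis starting at 0, SMARTer groups left of the dotted line and TruSeq groups right of it. Il2ra in AntiNRR cells (542 to 848 CPM) lies far below IgG cells (3205 to 3791 CPM), Cish in DeltaMxCre cells lies above MxCre cells, and 1 TamCre library stands alone for Il2rb.

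Il2ra (GRCm38 chromosome 2, 11642792-11693194, plus strand), the alpha chain that raises the affinity of the receptor for IL-2, showed the largest change of any member in AntiNRR cells. It was at 542, 848 and 578 CPM in AntiNRR libraries, against 3205, 3791 and 3633 CPM in IgG libraries. Every AntiNRR library lay far below every IgG library, and Il2ra fell by 2.43 ± 0.24 on the log2 scale (SE, n = 3 and 3, edgeR FDR 0.000211), 5.40-fold lower. Loss of Zmiz1 did not give this fall in either model. Il2ra was at 4436, 4914 and 5885 CPM in DeltaMxCre libraries, against 2370.4, 3492 and 4378 CPM in MxCre libraries. All 3 DeltaMxCre libraries lay above the MxCre libraries, the nearest values being 4436 and 4378 CPM, and the log2 fold change of 0.57 ± 0.22 did not pass (edgeR FDR 0.229). Lone libraries moved it between 0.37 and 0.80, and no such setting passed. In the tamoxifen pair Il2ra was at 2315, 3064, 2813 and 2574 CPM in DeltaTamCre and at 2231, 2354, 2206 and 2366 CPM in TamCre libraries. The groups overlapped, with 3 of the 4 DeltaTamCre libraries above all TamCre libraries (log2 fold change 0.23 ± 0.09, edgeR FDR 0.228). The difference between effects was itself tested: the Il2ra effect was 3.01 ± 0.32 higher in DeltaMxCre than in AntiNRR (log2, edgeR FDR 0.000960, where 1.23% of genes were called, 0.76% higher and 0.472% lower). It was 2.63 ± 0.24 higher in DeltaTamCre than in AntiNRR (edgeR FDR 5.81e-07, where 0.698% of 13895 genes were called, 0.439% higher and 0.259% lower), a contrast that also crosses kits. Between DeltaTamCre and DeltaMxCre the Il2ra effects differed by -0.38 ± 0.23 (edgeR FDR 0.862, 95% interval -0.86 to 0.10).

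Il7r (chromosome 15, 9506159-9529941, minus strand), the ligand-binding chain of the IL-7 receptor, was the other receptor gene that fell with the antibody. It was at 90.1, 72.9 and 86.4 CPM in AntiNRR libraries, against 174, 152 and 169.6 CPM in IgG libraries. The groups were well apart, at a log2 fold change of -0.99 ± 0.15 (SE, n = 3 and 3, edgeR FDR 0.000179). In DeltaMxCre libraries Il7r was at 124, 141 and 206 CPM, against 163, 171 and 143 CPM in MxCre libraries. The spread within DeltaMxCre covered the MxCre range on both sides (log2 fold change -0.02 ± 0.15, 95% interval -0.32 to 0.29, edgeR FDR 0.974). DeltaTamCre libraries had 119, 108, 117 and 122 CPM and TamCre libraries 101, 133, 122 and 127 CPM, with a log2 fold change of -0.05 ± 0.09 and a 95% interval of -0.24 to 0.14. The Il7r effect was 0.97 ± 0.21 higher in DeltaMxCre than in AntiNRR (edgeR FDR 0.0138), a call lost without DeltaMxCre 3, the library with the highest Il7r level (0.73, edgeR FDR 0.0719). It was 0.90 ± 0.19 higher in DeltaTamCre than in AntiNRR (edgeR FDR 0.0176), lost without IgG 3 (0.91, edgeR FDR 0.0535). Genes of neighbouring stages stood apart between the same libraries. The 10 measured markers of double-positive and mature T cells summed to 1090.3 to 1291 CPM in AntiNRR, against 649.5 to 769.97 CPM in IgG libraries, of which Ccr9 made up 564 to 685 CPM in AntiNRR and 183 to 232 CPM in IgG libraries, while the coreceptor genes Cd4 and Cd8a reached at most 15.3 and 11.5 CPM in either group. Of 15 DN3 markers, 8 fell and 1 rose in AntiNRR cells, beside 2.4% of all genes called lower and 1.66% higher. Those 8 include Notch1 itself and Dtx1, a Notch target gene, and the part of Notch target genes in this count was not tested. Lists of other cells also stood higher in AntiNRR than in IgG libraries without overlap: 8 gamma-delta T cell markers summed to 248 to 273 CPM in AntiNRR and 180 to 197 CPM in IgG libraries, with Il23r at 0 in both. The 11 NK and innate lymphoid markers summed to 238 to 263 CPM in AntiNRR and 128 to 156 CPM in IgG libraries, with Ncr1, Klrb1c, Klrd1 and Klrg1 at 0 in both. Of the 5 tested genes of this list edgeR called 0, and DESeq2 called Gzma alone, higher. Of 6 tested gamma-delta markers edgeR called 0, and DESeq2 called Sox13 alone, higher. The stromal sums given above did not overlap either. Of 4 tested stromal markers edgeR called 0, with 2 at an unadjusted p under 0.05, beside 2214 of 13557 genes, and DESeq2 called Pdgfrb and Pecam1 higher. Over all genes, DESeq2 called at most 825 of 13557 in AntiNRR cells, the highest number in any of 19 alternative settings. The part of a shift between stages or of other cells in the Il2ra, Il7r and Jak1 results was not tested.

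**Figure D3:**
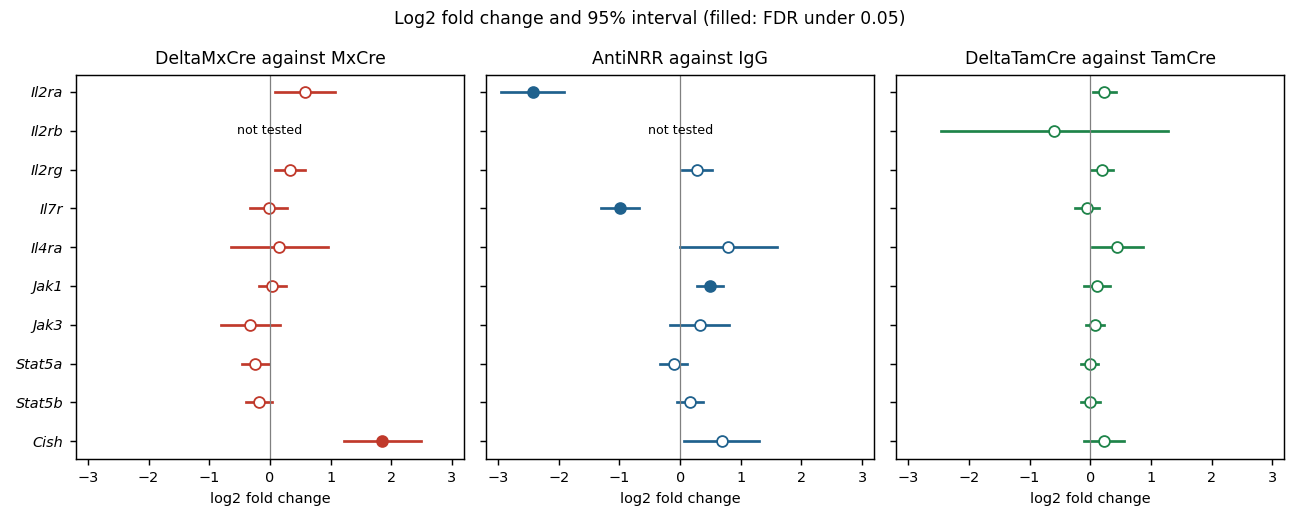
Log2 fold change (points) with 95% interval (lines) of each gene in the 3 comparisons, perturbed over control, filled where the edgeR FDR was under 0.05. Il2ra and Il7r lie left of 0 and Jak1 right of 0 with the antibody. Cish lies right of 0 in the DeltaMxCre panel, and no point is filled in the DeltaTamCre panel.

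Il2rg (chromosome X, 101264385-101268255, minus strand), the common gamma chain of the receptors for IL-2, IL-4, IL-7, IL-9, IL-15 and IL-21, did not fall with either of its partners. It was at 168, 156 and 157 CPM in AntiNRR libraries, against 136, 127 and 133 CPM in IgG libraries. DeltaMxCre libraries had 146, 139.6 and 171 CPM, against 134, 118 and 112 CPM in MxCre libraries. Both perturbed groups lay wholly above their controls, but neither difference passed, at 0.28 ± 0.12 (log2, edgeR FDR 0.225) in AntiNRR and 0.33 ± 0.12 (edgeR FDR 0.149) in DeltaMxCre. DeltaTamCre libraries had 323, 325, 385 and 385 CPM and TamCre libraries 311, 312, 291 and 328 CPM, overlapping, at 0.19 ± 0.08 (edgeR FDR 0.291). Per Il2rg count there were 4.12 ± 1.17 Il2ra counts in AntiNRR and 26.9 ± 3.13 in IgG libraries (SD, n = 3 each), a ratio within each library that scaling cannot move. That ratio was 33.3 ± 2.63 in DeltaMxCre and 28.8 ± 10.6 in MxCre libraries, and 7.64 ± 1.21 in DeltaTamCre and 7.37 ± 0.209 in TamCre libraries (SD, n = 4 each).

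Il2rb (chromosome 15, 78479256-78511621, minus strand), the beta chain that carries the IL-2 and IL-15 signal, was close to the limit of detection. Expected counts were 16, 47 and 0 in DeltaMxCre libraries and 1, 0 and 0 in MxCre libraries. AntiNRR libraries had 4, 0 and 0 counts, and IgG libraries 0, 0 and 0. Reads were therefore seen in 2 of 3 DeltaMxCre libraries, at 1.24 and 2.53 CPM. Il2rb did not pass the low-count filter of the SMARTer libraries and was not tested in them. In the fit to all 20 libraries the difference between its DeltaTamCre and DeltaMxCre effects did not pass (edgeR FDR 0.417, 0.148 to 0.807 over 26 alternatives). In the deeper TruSeq libraries Il2rb was at 1.63, 1.13, 1.29 and 1.15 CPM in DeltaTamCre and at 6.07, 0.787, 0.648 and 0.295 CPM in TamCre libraries. TamCre 1, with 558 counts, stood far above the other TamCre libraries, which all lay below the DeltaTamCre libraries. The log2 fold change was -0.59 ± 0.82 with TamCre 1 (edgeR FDR 0.769) and 1.15 without it (edgeR FDR 0.288), so that 1 library set the direction. In the same library Foxp3, the defining transcription factor of regulatory T cells and itself a STAT5-induced gene, was at 6.00 CPM, against 0.183 to 0.198 CPM in TamCre 2 to 4 and 0.221 to 0.610 CPM in DeltaTamCre libraries. The summed level of 7 regulatory T cell markers was 92.3 to 109.9 CPM in DeltaTamCre libraries, and in TamCre libraries it was lowest in TamCre 1, at 86.5 CPM, against 89.0 to 100.1 CPM in TamCre 2 to 4. Ctla4, the most abundant of these genes, was at 39.9 CPM in TamCre 1 and 52.0 to 57.5 CPM in TamCre 2 to 4. Of the NK cell markers, Klrd1 was at 0 in all 8 of these libraries, and the summed level of 11 NK and innate lymphoid markers was 283 CPM in TamCre 1 against 269 to 285 CPM in the other TamCre libraries. Gzma made up 209 CPM of that sum in TamCre 1. Without Gzma the sum was 74.1 CPM in TamCre 1, against 65.0 to 75.7 CPM in TamCre 2 to 4. The part of other cell types in the Il2rb value of TamCre 1 was not tested.

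Il4ra (chromosome 7, 125552271-125579474, plus strand), the IL-4 and IL-13 receptor chain that pairs with the gamma chain or IL-13 receptor alpha 1, was low and variable. It was at 17.2, 29.5 and 11.2 CPM in AntiNRR libraries, against 16.3, 11.1 and 5.82 CPM in IgG libraries. These ranges overlapped, and the log2 fold change of 0.80 ± 0.39 did not pass (edgeR FDR 0.305), whereas the authors' deposited table gives a fold change of 1.93 with q = 0.0204, a ratio of values that carry the added 1. DeltaMxCre libraries held 8.07, 7.06 and 7.04 CPM and MxCre libraries 8.36, 6.55 and 4.97 CPM (log2 fold change 0.16 ± 0.39, edgeR FDR 0.906). In the tamoxifen pair Il4ra was at 9.34, 9.47, 13.9 and 15.2 CPM in DeltaTamCre and 10.1, 8.16, 6.79 and 10.2 CPM in TamCre libraries, which overlapped (log2 fold change 0.45 ± 0.19, edgeR FDR 0.285).

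Of the kinases, Jak1 (chromosome 4, 101151974-101265282, minus strand), which is bound to the ligand-specific chains, rose with the antibody. It was at 821, 884 and 769.9 CPM in AntiNRR libraries, against 567, 569 and 627 CPM in IgG libraries. All 3 AntiNRR libraries lay above all IgG libraries, at a log2 fold change of 0.49 ± 0.11 (SE, n = 3 and 3, edgeR FDR 0.00562), 1.40-fold higher. With Zmiz1 loss, perturbed and control ranges of Jak1 overlapped in both models. DeltaMxCre libraries had 578, 587 and 677 CPM and MxCre libraries 590.2, 625 and 574 CPM (log2 fold change 0.04 ± 0.10, 95% interval -0.17 to 0.26). DeltaTamCre libraries had 281, 367, 385 and 365 CPM and TamCre libraries 350.1, 310.3, 313 and 317 CPM (log2 fold change 0.12 ± 0.10, 95% interval -0.10 to 0.33). The Jak1 effects of DeltaMxCre and AntiNRR differed by -0.45 ± 0.15, which did not pass (edgeR FDR 0.156), nor did the difference of -0.41 ± 0.15 between DeltaTamCre and AntiNRR (edgeR FDR 0.245). Jak1 shares exon sequence with Raver2 on the opposite strand, which reached at most 18.6 CPM, and without a stated strand setting their reads cannot be told apart.

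Jak3 (chromosome 8, 71676383-71690577, plus strand), the kinase bound to the gamma chain, was not called in any comparison. DeltaMxCre libraries had 28.1, 34.4 and 30.2 CPM, all below the MxCre libraries at 38.8, 40.4 and 37.0 CPM, and the log2 fold change of -0.33 ± 0.24 did not pass (edgeR FDR 0.561). AntiNRR libraries had 37.0, 40.1 and 57.1 CPM and IgG libraries 45.3, 20.3 and 41.5 CPM, where IgG 2 was the lowest of all (log2 fold change 0.32 ± 0.24, edgeR FDR 0.563). In the tamoxifen pair Jak3 was at 87.1, 75.1, 83.8 and 85.1 CPM in DeltaTamCre and 79.8, 79.2, 74.7 and 79.6 CPM in TamCre libraries, at a log2 fold change of 0.08 ± 0.07 and a 95% interval of -0.07 to 0.23. Jak3 overlaps Insl3 on the same strand, and part of its deposited counts are not whole numbers, so its level is uncertain. Jak3 and Il2rg, the kinase and the chain it binds, both stood higher in CPM in the TruSeq than in the SMARTer libraries, and Jak1 lower, for the controls as for the perturbed cells, with the libraries of each kit scaled separately.

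Stat5a and Stat5b, neighbours on chromosome 11 that are transcribed away from each other (Stat5b at 100780731-100859004 on the minus strand, Stat5a at 100859351-100885169 on the plus strand, 346 bases between them), encode the transcription factors at the end of the pathway. Neither passed in any comparison. Stat5a was at 169, 156 and 169.9 CPM in DeltaMxCre and 195, 202 and 187 CPM in MxCre libraries (log2 fold change -0.24 ± 0.11, edgeR FDR 0.263). Stat5b was at 275, 256 and 252 CPM in DeltaMxCre and 305, 283 and 296 CPM in MxCre libraries (log2 fold change -0.18 ± 0.11, edgeR FDR 0.438). For both genes each DeltaMxCre library lay below each MxCre library. With the antibody, Stat5a was at 170.2, 165 and 181 CPM in AntiNRR and 186, 194 and 176 CPM in IgG libraries (-0.11 ± 0.11, edgeR FDR 0.721). Stat5b was at 314, 319 and 325 CPM in AntiNRR and 315, 268 and 270.005 CPM in IgG libraries (0.17 ± 0.11, edgeR FDR 0.477). Those ranges overlapped for each gene. The share of Stat5a in the summed Stat5a and Stat5b counts was 34.1 to 35.7% in AntiNRR libraries, below the 37.1 to 42.0% of the IgG libraries, 37.8 to 40.3% in DeltaMxCre and 38.7 to 41.7% in MxCre libraries. With 3 against 3 libraries an exact permutation test cannot go below p = 0.10, so no test of this share was made. In the tamoxifen pair the share was 44.9 to 47.8% in DeltaTamCre and 45.7 to 47.8% in TamCre libraries.

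The tamoxifen pair bounded the Stat5 genes most tightly. Stat5a was at 189, 200.4, 213 and 205 CPM in DeltaTamCre and 208, 195, 206 and 204 CPM in TamCre libraries, with a log2 fold change of -0.01 ± 0.07 and a 95% interval of -0.15 to 0.13. Stat5b was at 212, 246, 233 and 226 CPM in DeltaTamCre and 247, 217, 230.4 and 223 CPM in TamCre libraries, with a 95% interval of -0.16 to 0.16. Stat5a and Stat5b are near-identical copies over much of their coding sequence, and Stat5a also shares exon sequence with Stat3 on the opposite strand, so the split of reads among these genes is uncertain.

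Cish (chromosome 9, 107296659-107302784, plus strand), a target gene of STAT5 whose product inhibits cytokine receptor signalling, was the member that rose in DeltaMxCre cells. It was at 57.0, 32.0 and 24.4 CPM in DeltaMxCre libraries, against 13.4, 8.30 and 9.76 CPM in MxCre libraries. Every DeltaMxCre library lay above every MxCre library, although the DeltaMxCre libraries differed among themselves by more than 2-fold. Cish rose by a log2 fold change of 1.85 ± 0.31 (SE, n = 3 and 3, edgeR FDR 0.00108), 3.60-fold, and by 1.43 without DeltaMxCre 1, the highest library, with the call kept in all 19 alternative settings. With the antibody, Cish was at 24.0, 33.0 and 16.3 CPM in AntiNRR libraries, against 14.9, 16.02 and 14.6 CPM in IgG libraries. All AntiNRR libraries lay above the IgG libraries, the nearest values being 16.3 and 16.02 CPM, and the log2 fold change of 0.68 ± 0.30 did not pass (edgeR FDR 0.242), while the authors' deposited table gives a fold change of 1.69 with q = 0.0318. In the tamoxifen pair Cish was at 36.6, 40.6, 38.0 and 35.9 CPM in DeltaTamCre and 40.9, 36.7, 24.0 and 27.4 CPM in TamCre libraries. DeltaTamCre lay within the TamCre range, at a log2 fold change of 0.23 ± 0.15 (edgeR FDR 0.481). The Cish effect was lower in DeltaTamCre than in DeltaMxCre by a log2 difference of -1.66 ± 0.35 (edgeR FDR 0.0497, where 0.166% of genes were called, 0.137% higher and 0.0288% lower), a contrast that crosses kits and whose call was lost in 18 of 26 alternative settings, with the lowest size, -1.23, without DeltaMxCre 1 (edgeR FDR 0.187). Between DeltaMxCre and AntiNRR the Cish effects differed by 1.16 ± 0.43 (edgeR FDR 0.212). Beside the Cish result, the double-positive and mature T cell markers summed to 863 to 1139 CPM in DeltaMxCre and 599 to 727 CPM in MxCre libraries, with Cd4 at 2.59 to 5.04 CPM in DeltaMxCre and 2.62 to 8.92 CPM in MxCre libraries, and the 7 regulatory T cell markers to 115 to 147 CPM in DeltaMxCre and 73.0 to 122 CPM in MxCre libraries. Of the markers of neighbouring stages, edgeR called 0 higher and 2 lower among 7 tested DN1 and DN2 progenitor genes in DeltaMxCre cells, Cd44 and Bcl11a, with a list median of -1.59, and 0 higher and 4 lower among 15 DN3 genes, with a list median of -0.17, beside -0.03 over all genes. Of all genes, 1.67% were called higher and 1.27% lower in this pair. The 11 measured progenitor markers summed to 109 to 145 CPM in DeltaMxCre and 113 to 150 CPM in MxCre libraries. Of 4 tested stromal markers edgeR called 0 in DeltaMxCre cells, with 2 at an unadjusted p under 0.05, beside 2239 of 13557 genes. DESeq2 called Psmb11 higher. The part of other cells or of a shift between stages in the Cish result was not tested. The 2 STAT motif matches of the Cish start site shown above are a feature of its sequence, and STAT5 binding was not measured.

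Genes whose levels followed a member most closely were ranked by Pearson's r over the 20 libraries, each library centred on the mean of its own controls, among 8980 genes. Libraries of a pair share their controls, and groups stand apart from each other, so r is a description. For Il2ra the leading genes were Dtx1 (r = 0.978), a Notch target gene that encodes an E3 ubiquitin ligase, Mllt4 (0.976), which encodes the junction protein afadin, and Arhgef10l (0.973), which encodes a guanine nucleotide exchange factor. Dtx1 was at 4.95, 13.4 and 15.8 CPM in AntiNRR libraries, against 162, 191 and 162 CPM in IgG libraries. It was at 386, 356 and 383 CPM in DeltaMxCre libraries, against 138, 188 and 192 CPM in MxCre libraries. Like Il2ra, Dtx1 lay far below its controls with the antibody and above them in DeltaMxCre cells. Without the 6 antibody libraries, a setting chosen after the data had been seen, r with Il2ra over the remaining 14 was 0.856 for Dtx1, 0.738 for Mllt4 and 0.557 for Arhgef10l. For Il7r the leading genes were Gng5 (0.941), which encodes a G protein gamma subunit, A030009H04Rik (0.919) and Arhgef10l (0.895). Without the antibody libraries these were 0.783, 0.563 and 0.340.

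For Cish the leading genes were Ppp1r18 (r = 0.853), which encodes a regulatory subunit of protein phosphatase 1, Pmepa1 (0.846), whose product damps TGF-beta signalling, and Psd4 (0.813), which encodes an exchange factor for ARF6. Without the antibody libraries they were 0.902, 0.870 and 0.806. These genes were chosen for following Cish over these libraries, so tests of their own changes are not given. Ppp1r18 was at 46.3, 32.9 and 38.0 CPM in DeltaMxCre libraries, against 28.4, 12.4 and 21.2 CPM in MxCre libraries.

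**Figure D4:**
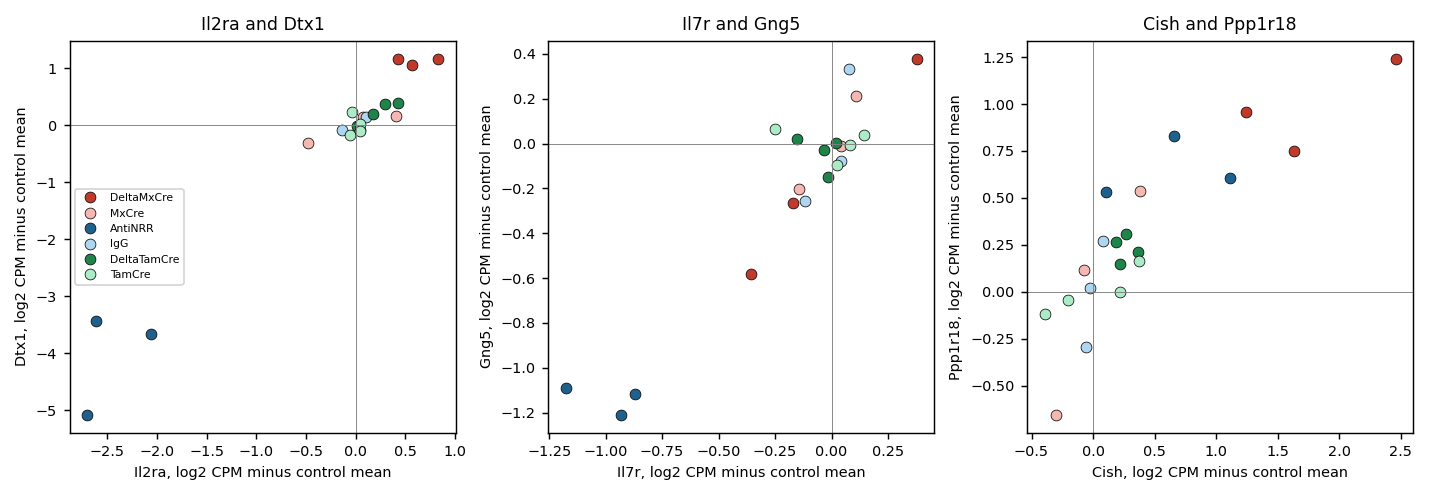
For Il2ra, Il7r and Cish, the log2 CPM of each library minus the mean of its own control group (horizontal axis) against the same for the gene that followed it most closely (vertical axis), 1 point per library. The 3 AntiNRR libraries lie apart at the lower left for Il2ra with Dtx1 and for Il7r with Gng5, while the points for Cish with Ppp1r18 form a continuous spread that the DeltaMxCre libraries end.

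The other genes of the pathway were described by lists that had been chosen with earlier results of these data known. Over all genes, DESeq2 called 691 of 13557 in DeltaMxCre and 545 of 13460 in DeltaTamCre cells, where edgeR called 399 and 12. In AntiNRR cells DESeq2 called at most 825 of 13557, where edgeR called 551. A single DESeq2 call in a list of 20 genes is close to those shares. An unadjusted p under 0.05 was found by edgeR for 2239 of 13557 genes in DeltaMxCre, 2214 of 13557 in AntiNRR and 2153 of 13460 in DeltaTamCre cells. Of 8 cytokine ligand genes, none was tested in the SMARTer libraries, where Il2, Il9 and Il13 had 0 counts throughout. In the TruSeq libraries only Tslp, which encodes a cytokine that uses the Il7r chain, passed the low-count filter, at 0.678 to 1.00 CPM in DeltaTamCre and 0.554 to 1.24 CPM in TamCre libraries, and edgeR and DESeq2 called 0 with 0 at an unadjusted p under 0.05. Il7 itself reached at most 0.216 CPM in any library.

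Of 19 other cytokine receptors tested in AntiNRR cells, edgeR called 4 higher and 0 lower, beside 1.66% of all genes higher and 2.4% lower, with a list median of 0.37 beside -0.02 over all genes. They were Kit, the stem cell factor receptor (0.84 ± 0.14, edgeR FDR 0.000529), Ifnar2, a type I interferon receptor chain (0.76 ± 0.14, edgeR FDR 0.000892), Ifngr1, the interferon-gamma receptor chain (0.70 ± 0.13, edgeR FDR 0.000996), and Il21r, which pairs with the gamma chain (0.76 ± 0.20, edgeR FDR 0.0234). The Il21r call was lost with IgG 1, IgG 2, IgG 3 or AntiNRR 1 left out (edgeR FDR 0.0695, 0.0939, 0.0897 and 0.141). For Il21r the authors' deposited table gives a fold change of 1.31 with q = 0.127. DESeq2 called 6 higher and 1 lower, beside at most 825 of 13557 genes in either direction. In DeltaMxCre cells edgeR called Ifngr1 alone (0.64 ± 0.13, edgeR FDR 0.00553), a call lost with DeltaMxCre 3 left out (edgeR FDR 0.0513), and DESeq2 called Ifnar1 and Ifngr1 higher. Over all genes, edgeR called 2.94% there (1.67% higher). In DeltaTamCre cells 0 of 20 were called by edgeR and by DESeq2, with 5 at an unadjusted p under 0.05. Kit, also a marker of the earlier DN1 and DN2 stages, was at 179, 157 and 216 CPM in AntiNRR and 94.97, 99.97 and 113 CPM in IgG libraries. The summed level of the 11 measured progenitor markers was 204 to 244 CPM in AntiNRR and 142 to 164 CPM in IgG libraries, with Lmo2, Lyl1, Cd34 and Gata2 at 0 in all AntiNRR libraries. The part of earlier progenitors in the receptor results was not tested.

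In AntiNRR cells, where 1.66% of all genes were called higher and 2.4% lower, 2 of 7 other JAK and STAT genes rose. These were Stat4, which carries IL-12 signals, at 158, 142 and 123 CPM in AntiNRR and 77.4, 72.5 and 76.5 CPM in IgG libraries (0.90 ± 0.15, edgeR FDR 0.000424), and Stat3, which carries IL-6 family signals (0.44 ± 0.12, edgeR FDR 0.0272). The Stat3 call was lost with IgG 2, IgG 3, AntiNRR 1 or AntiNRR 3 left out (edgeR FDR 0.111, 0.156, 0.108 and 0.0720). In DeltaMxCre and DeltaTamCre cells edgeR called 0 of 7 each, with 3 at an unadjusted p under 0.05 in each pair, and DESeq2 called 1 in each, in DeltaTamCre cells Stat4.

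Of 21 inhibitors of JAK-STAT signalling, 1 was called in AntiNRR cells, Cblb, which encodes an E3 ubiquitin ligase that restrains lymphocyte signalling. A count of 1 in 21 is close to the 4.06% of all genes called there (1.66% higher and 2.4% lower). Cblb was at 337, 293 and 294 CPM in AntiNRR libraries, against 504, 536 and 546 CPM in IgG libraries (-0.78 ± 0.11, edgeR FDR 0.000131), and fell in all 19 alternative settings. edgeR called 0 of 21 in DeltaMxCre cells, with 6 at an unadjusted p under 0.05, and DESeq2 called Socs1 and Socs3 higher. In DeltaTamCre cells edgeR called 0 of 21, with 2 at an unadjusted p under 0.05, and DESeq2 called Ptpn6 higher.

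A list of 20 STAT5-induced genes, from which the members were left out, had edgeR calls in the DeltaMxCre pair alone. Over all genes, edgeR called 1.67% higher and 1.27% lower in that pair. There 2 of 17 tested rose. These were Pim1, a survival kinase gene, and Bcl2, which protects thymocytes from death downstream of IL-7. Pim1 was at 57.6, 69.5 and 55.1 CPM in DeltaMxCre libraries, against 30.1, 32.0 and 43.0 CPM in MxCre libraries (0.79 ± 0.19, edgeR FDR 0.0184), a call lost with MxCre 1, MxCre 2 or DeltaMxCre 2 left out (edgeR FDR 0.0840, 0.0730 and 0.149). Bcl2 was at 334, 354 and 347 CPM in DeltaMxCre libraries, against 241, 183 and 267 CPM in MxCre libraries (0.58 ± 0.14, edgeR FDR 0.0187), a call lost with MxCre 2, DeltaMxCre 2 or DeltaMxCre 3 left out (edgeR FDR 0.102, 0.0843 and 0.0701). In both cases the groups did not overlap. The median of the list was 0.19 in DeltaMxCre cells, beside -0.03 over all genes. The lower progenitor and DN3 markers named beside Cish stand in the same libraries, and their part in the Pim1 and Bcl2 results was not tested. In AntiNRR cells edgeR called 0 of 17, with 2 at an unadjusted p under 0.05, and DESeq2 called Myc lower. In DeltaTamCre cells edgeR called 0 of 20, with 4 at an unadjusted p under 0.05, and DESeq2 again called Myc lower. The authors' deposited table, however, gives Pim1 a fold change of 1.64 (q = 0.00246) in DeltaTamCre, beside 1.68 (q = 0.00603) in DeltaMxCre cells. For Bcl2 it gives 0.965 (q = 0.860) in DeltaTamCre and 1.59 (q = 0.00251) in DeltaMxCre cells. The difference between the pairs was not tested for these genes.

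**Figure D5:**
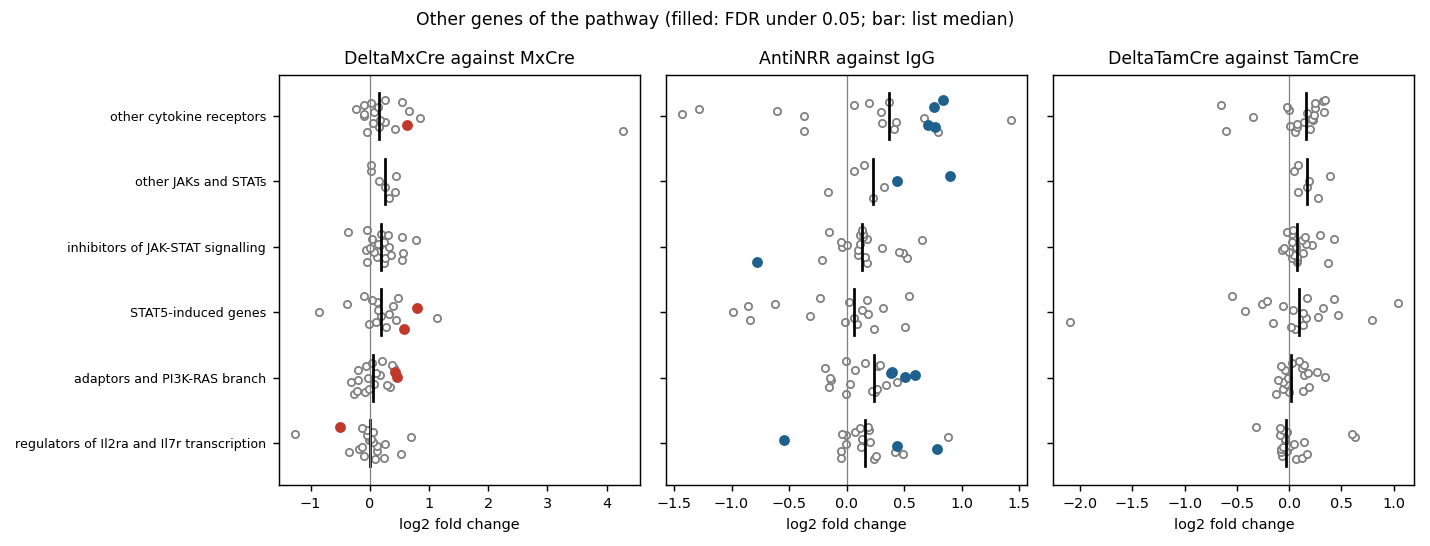
Log2 fold change of each tested gene (points) in 6 lists of pathway genes for the 3 comparisons, perturbed over control, with the list median (black bar) and filled points where the edgeR FDR was under 0.05. Filled points lie mostly right of 0 in the AntiNRR panel, few are seen in the DeltaMxCre panel and none in the DeltaTamCre panel; the horizontal axes differ in range.

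Of 20 genes of the adaptor, PI3K and RAS branch, edgeR called 4 higher and 0 lower in AntiNRR cells and 2 higher and 0 lower in DeltaMxCre cells. Over all genes, 1.66% were called higher and 2.4% lower in AntiNRR cells, and 1.67% higher and 1.27% lower in DeltaMxCre cells. Pik3cd, which encodes the leukocyte catalytic subunit of PI3K, rose in both SMARTer pairs, which share 1 estimate of the spread. Pik3cd rose by 0.51 ± 0.11 in AntiNRR (edgeR FDR 0.00395) and by 0.46 ± 0.11 in DeltaMxCre cells (edgeR FDR 0.0139), the second lost with DeltaMxCre 2 or DeltaMxCre 3 left out (edgeR FDR 0.0527 and 0.0595). The DeltaMxCre call of Pik3cd was also lost with only the 2 groups compared (edgeR FDR 0.0775). Pik3cg and Pik3r1 were also called higher by edgeR in AntiNRR cells, by 0.59 ± 0.14 (edgeR FDR 0.0104) and 0.39 ± 0.10 (edgeR FDR 0.0257). The authors' deposited table gives Pik3cg a fold change of 1.55 (q = 0.00143) but Pik3r1 one of 1.00 (q = 0.987). Pik3cg was lost with IgG 2, IgG 3 or AntiNRR 2 left out (edgeR FDR 0.0766, 0.0789 and 0.0537), and Pik3r1 without any 1 of the 6 antibody libraries (highest edgeR FDR 0.140). In DeltaTamCre cells edgeR called 0 of 20, with 4 at an unadjusted p under 0.05, and DESeq2 called Pik3cd higher.

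Of 20 transcription factors and cofactors known to act on Il2ra or Il7r, edgeR called 2 higher and 1 lower with the antibody, and DESeq2 6 higher and 1 lower (these 3 with Rel, Ets1, Foxo1 and Foxo3). Over all genes, edgeR called 1.66% higher and 2.4% lower with the antibody, and DESeq2 at most 825 of 13557 in either direction. Notch1 itself, at 1909, 2283 and 2032 CPM in AntiNRR libraries against 3131, 3024 and 2894 CPM in IgG libraries, fell (-0.54 ± 0.10, edgeR FDR 0.00186). Gata3, a T lineage factor, rose to 249, 244 and 253 CPM in AntiNRR libraries, against 152, 152 and 127 CPM in IgG libraries (0.79 ± 0.13, edgeR FDR 0.000410). Ikzf1, which encodes Ikaros, rose by 0.43 ± 0.12 (edgeR FDR 0.0270), a call lost without any 1 of the 6 antibody libraries (highest edgeR FDR 0.111). In DeltaMxCre cells edgeR called Tcf7, a T lineage factor that Notch induces, and DESeq2 called Tcf7 and Foxo1. Over all genes, edgeR called 2.94% there (1.27% lower). Tcf7 was at 1027, 949 and 936 CPM in DeltaMxCre libraries against 1558, 1207 and 1353 CPM in MxCre libraries (-0.50 ± 0.11, edgeR FDR 0.00841), a call lost with DeltaMxCre 2 or DeltaMxCre 3 left out (edgeR FDR 0.0574 and 0.0529). The Tcf7 call was also lost with only the 2 groups compared (edgeR FDR 0.0800). In DeltaTamCre cells edgeR called 0 of 20, with 3 at an unadjusted p under 0.05. DESeq2, which called 545 genes over all in this pair, called Rel higher and Tcf7 lower. Notch1 and Tcf7 also belong to the DN3 marker list.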

How the data were processed

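RNA-seq libraries (20) were grouped by the labels. FastQC 0.10.0, TopHat2 2.0.9, Bowtie2 2.1.0.0, Cufflinks and Cuffdiff 2.1.1 and the mm10 genome are named in the submitters' processing notes. Neither annotation nor strand setting was found in the sources used here. The deposited table holds the authors' expected counts per gene (98.38% whole numbers), which were rounded. The authors also deposited group FPKM with an added 1 (read from the values), fold changes as ratios of these and q-values, which were used as they stand.

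Genes with low counts were removed (filterByExpr), libraries were scaled by TMM, and edgeR 4.0.16 (R 4.3.3) quasi-likelihood tests were fitted to the 12 SMARTer libraries, the 8 TruSeq libraries and, for differences between kits, all 20, with Benjamini-Hochberg adjustment over all genes and a threshold of 0.05. The SE is the log2 fold change divided by the square root of F. CPM are TMM-scaled within the libraries of a kit, with a prior count of 2 on the log2 scale. DESeq2 1.42.0, other scalings, no filter, other sample sets, a replicate block and leaving out each library were the alternatives. No pair of libraries was identical.

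The members and lists were chosen with earlier results of these data known. All 10 members are named. Of each pathway list and comparison up to 4 called genes with the lowest FDR are named, except for a few genes not reported here, and for Il2ra, Il7r and Cish the 3 genes with the highest r among those of mean CPM of at least 10. The test was tested on simulated data: of 100 genes changed 2-fold it recovered 44% in the DeltaMxCre, 43% in the AntiNRR and 71% in the DeltaTamCre comparison (13557, 13557 and 13460 genes). Gene positions are on GRCm38, and promoter sequences are from RefSeq. Depth limits low genes such as Il2rb, and the precision of the other genes is set by the spread between 3 or 4 libraries.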

Additional observations from a re-analysis of the deposited data

Results flagged for a closer look

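In TamCre cells the highest Il2rb library, TamCre 1 at 6.07 CPM, was separated from its nearest neighbour by 0.915 of the whole range of the 4 libraries, above the limit of 0.829. For Jak3 in TamCre cells the lowest library, TamCre 3 at 74.7 CPM, was separated by 0.875 of the range, which spans 74.7 to 79.8 CPM. Of 20 such groups of 4 libraries, chance alone sets apart about 1 in 20.

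Effects of different perturbations differed, by a test of the difference itself, for 3 genes. The Il2ra effect was 3.01 higher (log2) in DeltaMxCre than in AntiNRR and 2.63 higher in DeltaTamCre than in AntiNRR. The Il7r effect was 0.97 higher in DeltaMxCre than in AntiNRR and 0.90 higher in DeltaTamCre than in AntiNRR. The Cish effect differed by -1.66 between DeltaTamCre and DeltaMxCre. The second contrast of each receptor and that of Cish compare libraries of different kits, and what the kit adds cannot be told apart.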

How the results depend on the processing

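The calls of Cish in DeltaMxCre and of Il2ra, Il7r and Jak1 in AntiNRR cells held in 19 of 19 alternatives each, and no member was called in DeltaTamCre cells in any of 15. With the replicate block 2 members were called in DeltaMxCre cells (Il2ra joined, 0.61, edgeR FDR 0.00385), and 0 genes in DeltaTamCre cells. Same-numbered libraries did not deviate together (r -0.357 to 0.0238), while differently numbered libraries of the tamoxifen pair reached r = 0.307. These r give no sign of pairing by number but cannot exclude it. Called genes numbered 399 in DeltaMxCre, 691 with DESeq2, 183 with only the 2 groups compared and 138 to 434 leaving out 1 library. They numbered 551 in AntiNRR and 257 to 817 leaving out 1. In DeltaTamCre they numbered 12, 545 with DESeq2, 3 without robust moderation, 2 with all 20 libraries in 1 fit and 0 to 8 leaving out 1. Members whose effects differed numbered 2 between DeltaMxCre and AntiNRR (1 to 2 leaving out 1), 2 between DeltaTamCre and AntiNRR (1 with the block, Il7r 0.91 at edgeR FDR 0.0754; 1 to 2 leaving out 1) and 1 between DeltaTamCre and DeltaMxCre (0 to 1 leaving out 1). That last one, Cish, was lost with total counts (-1.65, edgeR FDR 0.0526), the block (-1.57, edgeR FDR 0.0802) and no robust moderation (-1.66, edgeR FDR 0.0653), which leaves 0, and spanned -1.88 to -1.23 leaving out 1. Values that were not called changed sign: Il2rb in DeltaTamCre with the block (0.39) and leaving out 1 (-0.94 to 1.15), Il7r in DeltaMxCre with total counts (0.053) and leaving out 1 (-0.26 to 0.13), Stat5a in DeltaTamCre with total counts (0.037) and leaving out 1 (-0.042 to 0.015), and Stat5b in DeltaTamCre with RLE (-0.0057), no filter (-0.0038), DESeq2 (-0.0057), all 20 libraries (-0.032) and leaving out 1 (-0.047 to 0.031). Leaving out 1 library also gave -0.042 to 0.12 for Il2rg between DeltaMxCre and AntiNRR, -0.0045 to 0.36 for Il4ra in DeltaMxCre, -0.74 to 0.084 for Il4ra and -0.45 to 0.032 for Jak3 between DeltaTamCre and AntiNRR, -0.21 to 0.18 for Il7r and -0.014 to 0.12 for Jak1 between DeltaTamCre and DeltaMxCre, and -0.034 to 0.086 for Jak1 in DeltaMxCre. Il2rb did not pass the low-count filter in the SMARTer libraries, so no alternative is set beside it there. The causes were not tested. Correlations without the antibody libraries were added after the data had been seen.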
